A study of Mus musculus with 36 samples.

Results

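The Cd28, Ctla4 and Icos costimulatory locus lies on mouse chromosome 1 and was described by its accessible chromatin in naive and grafted CD4+ T cells that lacked HP1α (encoded by Cbx5) or HP1γ (encoded by Cbx3). A consensus peak was taken as a member when its midpoint was nearer to a transcript start of Cd28, Ctla4 or Icos than to that of any other protein-coding gene, or when it overlapped the body of one of the 3 genes. This gave 80 of 71509 peaks, namely 22 at Cd28, 22 at Ctla4 and 36 at Icos, over 532.4 kb between positions 60691421 and 61223790 of chromosome 1 (GRCm39). Of the 80, 20 overlapped a gene body and 60 were taken by the nearest start alone. All 80 passed the filter on low counts.

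CD28 is the main costimulatory receptor of T cells, and together with the T cell receptor it drives activation by binding CD80 and CD86 on antigen-presenting cells. CTLA-4 binds the same ligands more tightly and restrains the response, and regulatory T cells (Treg) carry it at a high level. ICOS is induced on activated T cells, binds ICOSL and helps follicular helper and effector T cells. HP1α and HP1γ are chromodomain proteins that bind methylated lysine 9 of histone H3 in heterochromatin. ATAC-seq marks open DNA by the insertions of the Tn5 transposase, so that a higher read count over a peak is read as a more accessible region.

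The series held 36 libraries in 12 groups of 3, from sex-matched littermates of 6 to 12 weeks of mixed 129/Sv and C57BL/6 descent. The study states that it used males, with its sequencing in mind. In the HP1α line, KO mice carried a floxed allele deleted by CMV-cre, which acts in the germ line, and WT littermates were the controls. In the HP1γ line, KO mice carried the floxed allele with Cd4-cre, which acts from thymic development in T cells of both the CD4 and CD8 lineages, and floxed littermates without Cre were the controls. Naive cells were splenic naive CD4+ T cells. Tconv were the TCR Vβ6+ donor-specific conventional T cells that had been sorted from the spleen 3 weeks after transfer into lethally irradiated hosts, either C57BL/6 J or CD45.1+ B6 mice, that also received bone marrow of C57BL/6 J and B6D2F1 mice. The sort kept CD45.1- cells. Tconv with Treg had been transferred together with ex vivo expanded Treg that carried Thy1.1, and the sort kept Thy1.1- cells. The libraries are numbered within a group, but the labels do not tie the numbers to mice, so that p-values measure the spread between these samples, which may be technical.

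Totals over the peaks ran from 1486053 to 96806542 reads, of which the 80 members held between 0.0786 and 0.118%. The study left out 3 HP1α libraries of low signal, replicate 3 of WT Tconv with Treg and replicates 2 and 3 of KO Tconv with Treg, which leaves 2 WT libraries and 1 KO library with Treg in that line. In the 3 libraries left out, 45.8 to 48.2% of reads fell in peaks over a gene start, against 51.9 to 58.8% in the other 33. Values below rest on the 33 libraries unless all 18 HP1α libraries are named, and the lone KO library with Treg was assumed to vary like the other groups. None of the 4 peaks over Cbx3 or Cbx5 was called between KO and WT, and these peaks do not check the deletions. The peak over the start of Cd4 was higher in HP1γ KO than in WT cells, by 2.77 on the log2 scale in naive cells, by 2.55 in Tconv and by 2.60 in Tconv with Treg, and a Cd4-cre transgene is present in KO cells only. Of the CD4 T cell markers, 4 of 5 had a peak over their start, as had 2 of 5 myeloid markers (Cd14 and Itgam) and 1 of 3 NK cell markers (Klre1), and none of 5 B cell or 3 erythroid markers. With Treg, the CD4 T cell starts summed to 27.1 to 41.2 CPM per kb in HP1α WT and 58.9 in KO, and to 39.6 to 57 in HP1γ WT and 95 to 112 in KO, the start of Cd4 included. The myeloid starts summed to 9.82 to 10.3 CPM per kb in HP1α WT and 15.6 in KO Tconv with Treg, to 9.16 to 12.6 in HP1γ WT and 7.78 to 9.15 in KO Tconv with Treg, and to 9.55 to 21.5 in the other groups. The NK start held 0.196 to 1.33 CPM per kb in naive and 1.58 to 7.07 in grafted cells. The start of the CD8 marker Cd8b1 held 18.1 to 23.8 CPM per kb in the naive libraries and 1.68 to 7.65 in the grafted cells, and the part of these markers in the results was not tested.

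The peaks on which the results with Treg turn lie around Ctla4 and downstream of Icos, and their central 300 bases are given here on the plus strand of GRCm39 as read from the reference genome. A peak is named by its gene and by the distance of its midpoint from the start of the canonical transcript, which is at position 60785517 for Cd28, 60948184 for Ctla4 and 61017086 for Icos, all on the plus strand. Capitals mark matches, on either strand, to the short motifs described further on. The Ctla4 -6.1 kb peak (1210 bp, chr1:60941491-60942700) lies in an intron of a non-canonical Ctla4 transcript. The Ctla4 +21.6 kb peak (610 bp, chr1:60969521-60970130) and the +28.0 kb peak (1720 bp, chr1:60975281-60977000) lie between Ctla4 and Icos within the noncoding gene Gm34649. The Icos +57.2 kb peak (1370 bp, chr1:61073621-61074990) lies downstream of Icos. The last sequence is the 300 bases before the canonical Ctla4 start.
Ctla4 -6.1 kb, chr1:60941946-60942245: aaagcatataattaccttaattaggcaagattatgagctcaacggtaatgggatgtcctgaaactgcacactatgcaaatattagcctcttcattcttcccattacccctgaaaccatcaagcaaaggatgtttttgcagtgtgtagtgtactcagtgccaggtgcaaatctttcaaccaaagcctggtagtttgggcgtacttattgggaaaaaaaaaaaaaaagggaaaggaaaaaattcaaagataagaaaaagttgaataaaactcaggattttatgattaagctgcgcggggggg
Ctla4 +21.6 kb, chr1:60969676-60969975: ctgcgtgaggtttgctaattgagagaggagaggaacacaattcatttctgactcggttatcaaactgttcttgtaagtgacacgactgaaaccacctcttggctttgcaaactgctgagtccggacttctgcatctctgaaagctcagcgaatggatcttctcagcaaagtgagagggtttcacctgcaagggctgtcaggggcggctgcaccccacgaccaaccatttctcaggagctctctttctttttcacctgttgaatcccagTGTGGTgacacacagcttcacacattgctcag
Ctla4 +28.0 kb, chr1:60975991-60976290: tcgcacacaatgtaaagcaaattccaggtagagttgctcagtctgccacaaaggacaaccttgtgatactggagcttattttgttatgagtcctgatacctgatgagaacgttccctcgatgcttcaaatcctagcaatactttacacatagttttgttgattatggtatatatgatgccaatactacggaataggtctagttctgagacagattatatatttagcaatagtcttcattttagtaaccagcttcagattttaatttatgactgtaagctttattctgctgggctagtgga
Icos +57.2 kb, chr1:61074156-61074455: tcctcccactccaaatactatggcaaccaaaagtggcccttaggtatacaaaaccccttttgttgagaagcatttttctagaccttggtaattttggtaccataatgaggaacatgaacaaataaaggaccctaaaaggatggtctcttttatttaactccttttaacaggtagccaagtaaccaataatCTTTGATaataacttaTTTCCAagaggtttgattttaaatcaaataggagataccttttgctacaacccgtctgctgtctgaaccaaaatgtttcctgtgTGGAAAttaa
Ctla4 upstream of start, chr1:60947884-60948183: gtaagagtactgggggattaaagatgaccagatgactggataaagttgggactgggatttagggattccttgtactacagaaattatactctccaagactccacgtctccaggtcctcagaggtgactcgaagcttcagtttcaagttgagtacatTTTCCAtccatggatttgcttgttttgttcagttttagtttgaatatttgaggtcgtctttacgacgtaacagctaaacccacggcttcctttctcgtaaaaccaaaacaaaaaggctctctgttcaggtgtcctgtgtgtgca

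The starts of the 3 genes were open in every group, naive cells included. Levels are given in CPM, the reads of a peak scaled to the library's total over all peaks, after TMM scaling (trimmed mean of M values, which aligns the bulk of peaks between libraries) within a line. The peak over the Cd28 start is 17250 bp wide, that over the Ctla4 start 7240 bp and that over the Icos start 3740 bp. Per kb of peak, in HP1α WT naive cells, they held 14.5, 10 and 14.8 CPM, and in HP1γ WT naive cells 10.5, 8.47 and 12.5 CPM. The Cd28 start peak held 52.0% of all reads of the Cd28 members in HP1α WT naive cells, while the Icos start peak held 20.8% of those of Icos.

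The Ctla4 start peak held 75.7, 74.4 and 68.0 CPM in the 3 HP1α WT naive libraries, and 99.0, 78.0 and 62.1 CPM in WT Tconv. With Treg it held 177 and 117 CPM in the 2 WT libraries, above the WT libraries without Treg, and 109 CPM in the KO library, within the range of KO Tconv (124, 110 and 78.3 CPM). The log2 difference of this KO library from WT with Treg was -0.58 ± 0.26. Over 18 alternatives it ranged from -1.12 to -0.10, and 1 of them called it. Libraries of the HP1γ line held 66.5, 58.7 and 58.6 CPM in WT naive cells, 65.3, 100 and 104 CPM in WT Tconv and 86.3, 87.6 and 78.1 CPM in WT Tconv with Treg. HP1γ KO Tconv held 72.9, 130 and 123 CPM without Treg and 149, 155 and 171 CPM with Treg, which did not overlap (log2 difference 0.54 ± 0.17, edgeR, adjusted p = 0.0362). Without KO Tconv replicate 1 that difference was 0.32 (edgeR, adjusted p = 0.157), and with the 2 groups fitted alone its adjusted p was 0.123. The log2 difference of HP1γ KO from WT with Treg was 0.90 ± 0.17 (SE, edgeR quasi-likelihood test, Benjamini-Hochberg adjusted p = 0.00185), which is under the 2-fold change that a call required. A peak was called where the adjusted p was under 0.05 and the log2 fold change exceeded 1 in size.

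**Figure D1:**
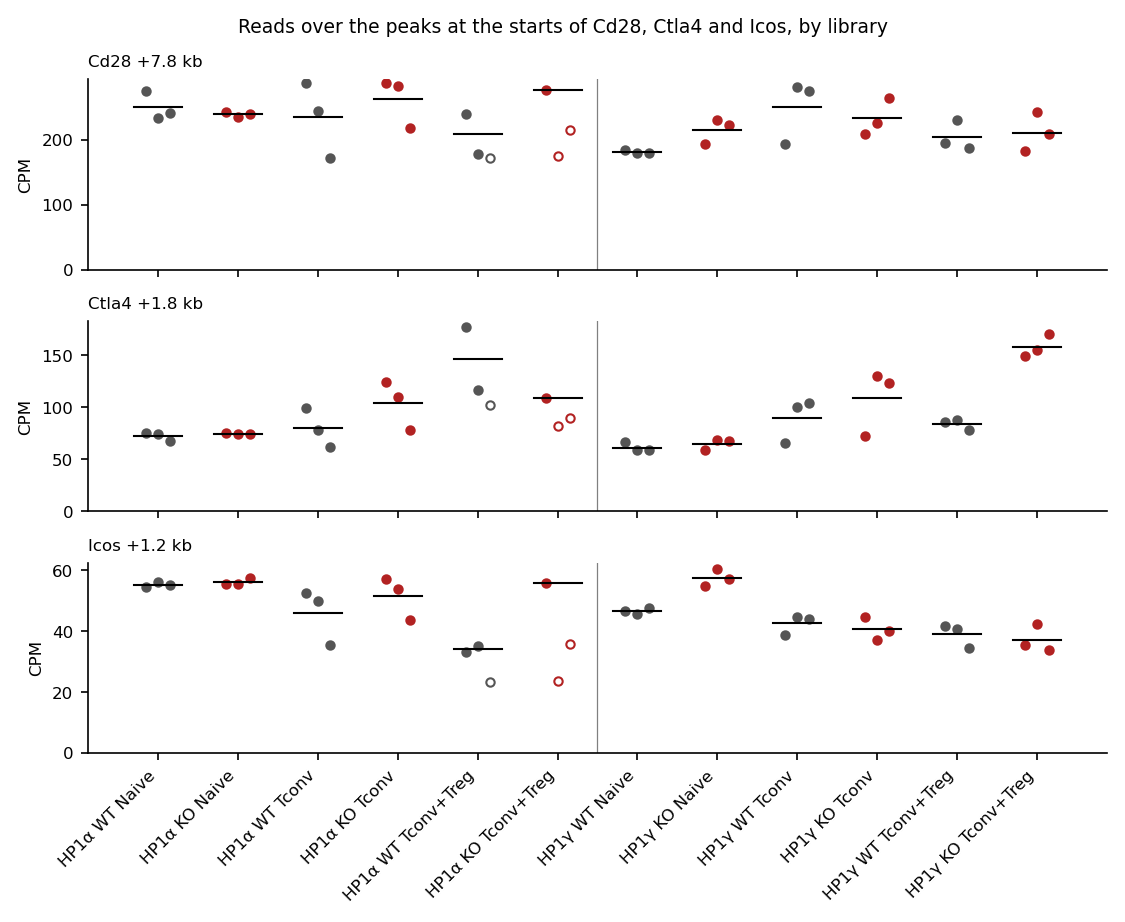
CPM over the peaks at the starts of Cd28, Ctla4 and Icos for each library (points; grey, WT; red, KO; open, left out by the study) with group means over the kept libraries (lines), by line and condition. The Ctla4 start reaches 149 to 171 CPM in HP1γ KO Tconv with Treg, against 78.1 to 87.6 CPM in WT.

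The Cd28 start peak differed little between groups. Its 3 libraries held 275, 233 and 241 CPM in HP1α WT naive cells and 287, 244 and 172 CPM in WT Tconv, and the 2 groups overlapped. It rose in the HP1γ line from 184, 180 and 180 CPM in WT naive cells to 193, 281 and 275 CPM in WT Tconv, by 0.46 ± 0.13 on the log2 scale (edgeR, adjusted p = 0.00331). The Icos start peak held 54.3, 56.1 and 55.1 CPM in HP1α WT naive cells and 52.4, 49.9 and 35.3 CPM in WT Tconv, with a log2 difference of -0.24 ± 0.13 (edgeR, adjusted p = 0.121).

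Summed over all members, the order of the groups differed between the genes. These sums are descriptions within a line. For Cd28, the HP1α sums ran from 481 ± 47.3 CPM (SD, n = 3) in WT naive cells through KO naive cells (471 ± 26.2), KO Tconv with Treg (448, 1 library), KO Tconv (416 ± 46.4) and WT Tconv (383 ± 82.0) to 360 ± 33.8 CPM (SD, n = 2) in WT Tconv with Treg. Only KO naive cells and KO Tconv with Treg did not overlap as neighbours. The HP1γ line had its highest Cd28 sum in KO naive cells (446 ± 31.6), whose libraries all lay above those of WT naive cells (384 ± 5.68). WT Tconv (382 ± 57.1), KO Tconv (363 ± 28.3), KO Tconv with Treg (343 ± 45.7) and WT Tconv with Treg (333 ± 33.1 CPM, SD, n = 3 each) followed, each overlapping its neighbour.

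The Ctla4 sum was lowest in naive cells in both lines. In the HP1α line it was 228 ± 3.69 CPM in WT naive cells, 238 ± 5.59 in KO naive cells, 242 ± 50.4 in WT Tconv, 293 ± 54.4 in KO Tconv (SD, n = 3 each), 323 in the KO library with Treg and 383 ± 72.5 (SD, n = 2) in WT Tconv with Treg. WT and KO naive cells did not overlap, nor did WT Tconv with Treg and the KO library with Treg. With all 18 libraries the last 2 means were 349 ± 78.9 and 272 ± 44.2 CPM (SD, n = 3). In the HP1γ line it was 202 ± 12 in WT naive cells, 215 ± 20.6 in KO naive cells, 243 ± 25.9 in WT Tconv with Treg, 247 ± 38.0 in WT Tconv, 280 ± 42.8 in KO Tconv and 392 ± 19.8 CPM in KO Tconv with Treg (SD, n = 3 each). Only the last did not overlap the group before it.

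The Icos sum was highest in Tconv without Treg. It was 388 ± 70.6 CPM in HP1α KO Tconv, 376 in the KO library with Treg, 345 ± 77.3 in WT Tconv, 277 ± 15.1 (n = 2) in WT Tconv with Treg, 270 ± 15.9 in KO naive and 266 ± 15 CPM in WT naive cells (SD, n = 3 unless given), and each neighbour overlapped the next. The HP1γ sums were 335 ± 25.1 in WT Tconv, 312 ± 26.5 in KO Tconv, 309 ± 33.7 in WT Tconv with Treg, 303 ± 35.4 in KO Tconv with Treg, 283 ± 24.9 in KO naive and 234 ± 6.89 CPM in WT naive cells (SD, n = 3 each). Only WT naive cells lay apart from their neighbour. Per kb of peak covered, HP1γ KO Tconv with Treg held 12.7 CPM at Ctla4, 8.76 at Cd28 and 7.92 at Icos, and HP1γ WT naive cells held 6.54, 9.81 and 6.12 CPM.

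The first comparison asked how the locus differed between naive cells and Tconv from the graft. The members called at Cd28 were mostly lower in Tconv, while those called at Ctla4 and Icos were more often higher than lower. In HP1α WT cells 43 of 80 members were called, beside 42.5% of all peaks, and in KO cells 46, beside 42.6%. In HP1γ WT cells 48 were called, beside 46.5%, and in KO cells 43, beside 43%. Over all peaks, 24.9, 23.5, 24.5 and 22.4% were called higher and 17.5, 19, 22 and 20.6% lower in the same order. The shares of members were thus 53.8, 57.5, 60.0 and 53.8%. At Cd28, 11, 11, 12 and 12 of 22 members were lower in Tconv in these 4 comparisons, and 1 was higher in each. At Ctla4 9, 10, 9 and 8 of 22 were higher and 2, 3, 3 and 3 lower, and at Icos 16, 16, 17 and 12 of 36 were higher and 4, 5, 6 and 7 lower. In all 4 comparisons, 16 members were called higher (6 at Ctla4, 10 at Icos, none at Cd28) and 17 lower (11 at Cd28, 2 at Ctla4, 4 at Icos). The 4 comparisons use separate libraries.

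The median log2 difference of the 22 Cd28 members was -0.81 in HP1α WT and -1.46 in HP1γ WT cells, against -0.03 and 0.08 over all peaks. The 11 Cd28 members lower in all 4 comparisons lay at -93.6 to -32.5 kb and at 35.4 to 67.2 kb from the start, all outside the gene body. The Cd28 -93.6 kb peak lies upstream of Cd28 and had the smallest p of the Cd28 members in the HP1γ line. It held 23.0, 21.6 and 22.6 CPM in HP1γ WT naive cells and 6.56, 4.72 and 3.39 CPM in WT Tconv, which did not overlap. Its log2 difference was -2.16 ± 0.19 in WT (edgeR, adjusted p = 8.97e-09) and -2.33 ± 0.22 in KO cells (edgeR, adjusted p = 3.39e-08). In the HP1α line the smallest p fell on the +67.2 kb peak in WT cells, at 13.2, 17.7 and 18.8 CPM in naive cells and 3.03, 4.03 and 3.03 CPM in Tconv (log2 difference -2.40 ± 0.24, edgeR, adjusted p = 1.8e-07). In KO cells it fell on the -32.5 kb peak, with a log2 difference of -3.06 ± 0.30 (edgeR, adjusted p = 3.77e-08).

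At Ctla4, the 6 members that rose in all 4 comparisons lay at -33.7, -6.1, -4.3, +11.3, +21.6 and +28.0 kb. The -33.7 kb peak held 1.81, 1.70 and 1.27 CPM in HP1γ WT naive cells and 10.7, 14.3 and 17.3 CPM in WT Tconv, and its log2 difference was 3.15 ± 0.34 (edgeR, adjusted p = 1.23e-07). In HP1α KO cells it was 2.84 ± 0.22 (edgeR, adjusted p = 6.48e-09). The +11.3 kb peak, downstream of Ctla4, rose by 1.90 ± 0.17 in HP1α WT cells (edgeR, adjusted p = 5.21e-08), from 6.11, 6.48 and 6.93 CPM to 28.9, 23.7 and 15.9 CPM. The -6.1 kb peak held 0.547, 0.495 and 0.724 CPM in HP1α WT naive cells and 3.14, 3.65 and 5.60 CPM in WT Tconv, with a log2 difference of 2.50 ± 0.31 (edgeR, adjusted p = 2.56e-06). Naive and Tconv libraries did not overlap at any of these peaks, nor did they at 59.7 to 75.7% of all peaks in the 4 comparisons.

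In all 4 comparisons 2 Ctla4 members were lower, at -49.9 and -26.0 kb. The -49.9 kb peak held 0.954, 0.747 and 0.905 CPM in HP1γ WT naive cells and 0.208, 0.256 and 0.0584 CPM in WT Tconv, with a log2 difference of -2.25 ± 0.34 (edgeR, adjusted p = 7.68e-06). The Ctla4 -26.0 kb peak, upstream of Ctla4, held 21.6, 19.6 and 18.7 CPM in HP1γ WT naive cells and 2.55, 2.05 and 2.30 CPM in WT Tconv. It fell by 3.11 on the log2 scale (SE 0.20, edgeR, adjusted p = 1.11e-10), and in HP1α WT cells by 2.35 (SE 0.24, edgeR, adjusted p = 1.61e-07). It was thus the more open of the 2 upstream peaks in naive cells, and the -33.7 kb peak the more open in Tconv, also per kb, as they span 1420 and 1630 bp.

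At Icos, the 10 members that rose in all 4 comparisons were 2 in introns of Icos, at +5.3 and +14.2 kb, and 8 downstream, up to 163.2 kb from the start. The Icos +61.6 kb peak gave the greatest rise among the 80 members in HP1α WT cells. It held 0.410, 0.675 and 0.550 CPM in naive cells and 17.6, 12.6 and 10.3 CPM in Tconv, and its log2 difference was 4.67 ± 0.39 (edgeR, adjusted p = 1.61e-08). In HP1γ WT cells it rose from 0.897, 0.613 and 0.695 CPM to 13.8, 11.3 and 7.75 CPM, by 3.94 ± 0.35 on the log2 scale (edgeR, adjusted p = 1.2e-08). The Icos +90.4 kb peak fell instead, from 10.7, 10.4 and 11.0 CPM in HP1γ WT naive cells to 1.68, 1.62 and 1.11 CPM in WT Tconv. Its log2 difference was -2.84 ± 0.18 (edgeR, adjusted p = 1.14e-10), and in HP1α KO cells -2.29 ± 0.16 (edgeR, adjusted p = 7.29e-10). No member was called in the interaction of genotype and activation in either line, where edgeR called 0% of all peaks in HP1α and 0.014% in HP1γ. At an unadjusted p under 0.05, 2 members passed in HP1α, beside 1.8% of all peaks, and 8 in HP1γ, beside 9.51%.

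**Figure D2:**
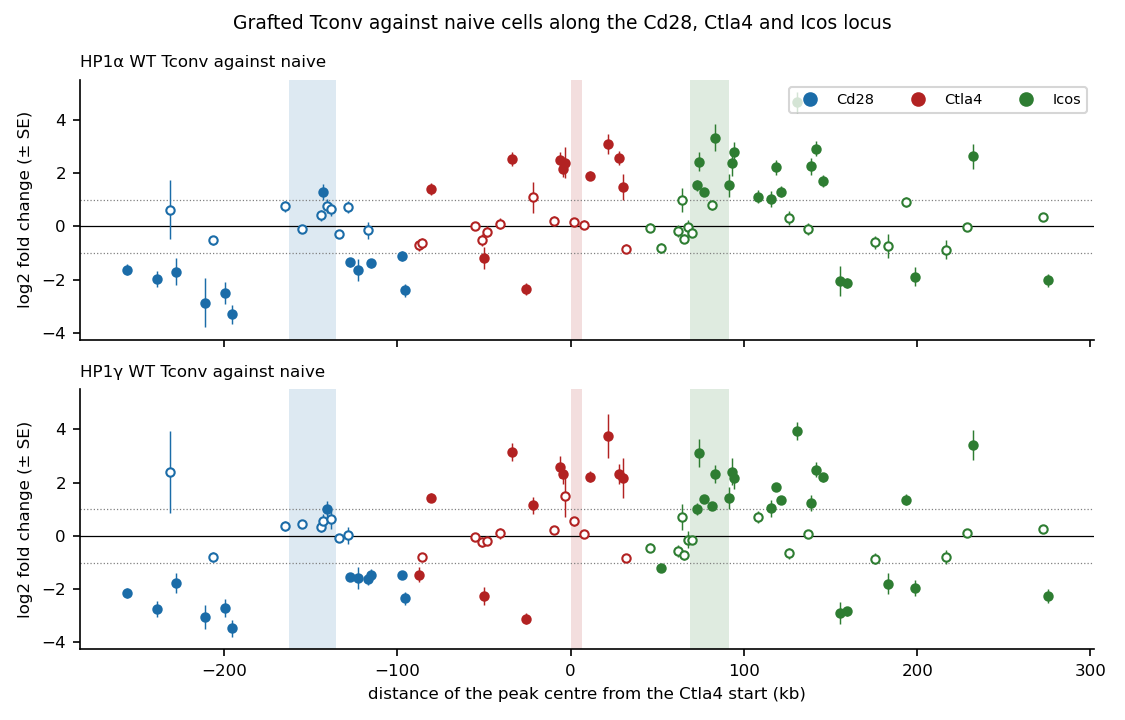
Log2 fold change of WT Tconv against naive cells (± SE) for each member, by the distance of the peak centre from the Ctla4 start in kb, in the HP1α line (top) and the HP1γ line (bottom). Filled points were called, dotted lines mark a log2 fold change of 1 in either direction and bands the canonical gene bodies. Called Cd28 peaks lie mostly below 0, and called Ctla4 and Icos peaks mostly above.

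The second comparison asked whether the loss of either HP1 protein altered the locus in naive cells and in Tconv without Treg. In naive cells no member was called in either line by edgeR, beside 0.00559% of all peaks for HP1α and 0.14% for HP1γ. At an unadjusted p under 0.05, 0 members passed in HP1α, beside 1.17% of all peaks, and 12 in HP1γ, beside 8.98%. DESeq2 called 1 member in the HP1γ line. In HP1γ KO naive cells 70 of 80 members had a log2 difference above 0, with a median of 0.21 against 0.03 over all peaks. At 26 members all 3 KO libraries lay above all 3 WT libraries and at none below, whereas over all peaks 15.4% lay above and 11.9% below. In HP1α naive cells the median was 0.04, against 0 over all peaks, and the smallest p fell on Cd28 +18.8 kb (log2 difference 0.30), Ctla4 +11.3 kb (0.30) and Icos +203.5 kb (0.19), each with an adjusted p of 1 by edgeR.

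The smallest p among Ctla4 members in HP1γ naive cells fell on the -6.1 kb peak. It held 0.697, 1.32 and 0.641 CPM in KO and 0.271, 0.221 and 0.232 CPM in WT naive libraries, which did not overlap. The log2 difference of 1.74 ± 0.53 did not pass (edgeR, adjusted p = 0.257), and DESeq2 gave 1.82 with an adjusted p of 6.24e-05. These levels rest on 24, 42 and 51 reads in KO and 19, 18 and 21 reads in WT libraries. The smallest p at Cd28 fell on the -48.6 kb peak (log2 difference 0.90, edgeR, adjusted p = 0.176) and at Icos on the +203.5 kb peak (0.55, edgeR, adjusted p = 0.124).

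In Tconv without Treg, no member was called between HP1α KO and WT cells, beside 0.021% of all peaks, and 1 member passed at an unadjusted p under 0.05, beside 4.82%. The smallest p among Ctla4 members fell on the -87.4 kb peak (log2 difference -0.55, edgeR, adjusted p = 0.999), at Cd28 on the +45.6 kb peak (-0.73, adjusted p = 0.999) and at Icos on the +61.6 kb peak (-0.56, adjusted p = 0.999). Without KO replicate 1 the latter was -1.10 and called (adjusted p = 0.0256). DESeq2 called 0 members. In the HP1γ line 2 members were higher in KO Tconv, beside 3.35% of all peaks called. The first was the Ctla4 -6.1 kb peak, at 3.16, 4.43 and 3.64 CPM in KO and 1.08, 1.32 and 2.06 CPM in WT libraries. Its groups did not overlap, and the log2 difference was 1.34 ± 0.26 (edgeR, adjusted p = 0.00571). With the 2 groups fitted alone it was 1.32 with an adjusted p of 0.0632.

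The other was the Cd28 -68.8 kb peak, a 200 bp interval within the noncoding gene Gm57165, upstream of Cd28. It was scarcely open anywhere, at 0 to 1.51 CPM over all 36 libraries. HP1γ KO Tconv held 0.121, 1.0 and 0.933 CPM and WT Tconv 0.0742, 0.0684 and 0.156 CPM, so that KO replicate 1 lay within the WT range. The log2 difference was 2.80 ± 0.73 (edgeR, adjusted p = 0.0235), on 6, 35 and 61 reads in KO and 5, 4 and 8 reads in WT libraries. Leaving out KO replicate 2 or 3 or WT replicate 1 or 2 ended the call, at adjusted p = 0.0829, 0.184, 0.109 and 0.111, as did the earlier quasi-likelihood method of edgeR (adjusted p = 0.0795). With Treg it held 1.32, 0.511 and 1.51 CPM in HP1γ KO and 0.270, 0.187 and 0.177 CPM in WT libraries, which did not overlap, and differed by 2.26 ± 0.60 (edgeR, adjusted p = 0.0102). Without KO replicate 1 or WT replicate 2 the adjusted p was 0.0602 or 0.0689.

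The smallest p at Icos between HP1γ KO and WT Tconv fell on the Icos -4.7 kb peak, a 240 bp interval upstream of Icos. It held 0.526, 0.886 and 1.16 CPM in KO and 0.237, 0.291 and 0.642 CPM in WT libraries, so that the groups overlapped. The log2 difference was 1.25 ± 0.38 (edgeR, adjusted p = 0.0595). It was called with the replicate block (1.12, adjusted p = 0.0383), without KO replicate 1 (1.51, adjusted p = 0.0198) and without WT replicate 3 (1.72, adjusted p = 0.0162).

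The third comparison asked what the presence of Treg changed within each genotype. In HP1α WT Tconv 6 of 80 members were called, beside 6.77% of all peaks, so that the share of members, 7.5%, was near the background. Of these 4 were at Ctla4 and higher with Treg, at -6.1, -3.3, +21.6 and +28.0 kb, and at Icos the +57.2 kb peak was higher and the +124.4 kb peak lower. The -6.1 kb peak held 20.3 and 25.9 CPM with Treg and 3.14, 3.65 and 5.60 CPM without, so that the groups lay far apart. It rose by 2.62 ± 0.29 on the log2 scale (edgeR, adjusted p = 5.3e-05). Replicate 3 with Treg, left out by the study, held 8.45 CPM and also lay above the libraries without Treg, and with all 18 libraries the rise was 2.36 (edgeR, adjusted p = 7.26e-05). Without WT replicate 1 with Treg, the fit that included the libraries left out no longer called it.

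The +28.0 kb peak held 16.0 and 15.2 CPM with Treg and 4.40, 7.77 and 6.21 CPM without, a rise of 1.54 ± 0.29 (edgeR, adjusted p = 0.00394). The +21.6 kb peak held 7.57 and 4.51 CPM with Treg and 1.86, 2.56 and 1.21 CPM without, a rise of 1.87 ± 0.36 (edgeR, adjusted p = 0.00435). The -3.3 kb peak rested on 31 and 2 reads with Treg, and its groups overlapped. Of its 18 alternatives 11 lost the call, among them DESeq2 (1.61, adjusted p = 0.134). The Ctla4 start peak rose by 0.95 ± 0.20 (edgeR, adjusted p = 0.00886), under the threshold on size. Over 18 alternatives it ranged from 0.36 to 1.33, with adjusted p up to 0.97, and 4 of them called it. The 2 WT libraries with Treg were uneven in depth, at 12691169 and 1486053 reads. Without replicate 1, which leaves the shallow library alone, none of the 6 was called, although the -6.1 kb log2 difference was 2.90 (edgeR, adjusted p = 0.723), the +21.6 kb difference 1.19, the +28.0 kb difference 1.48 and the -3.3 kb difference 1.10. Without WT Tconv replicate 1 the +21.6 kb call was also lost (1.66, edgeR, adjusted p = 0.0512).

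In HP1α KO Tconv no member was called with against without Treg, beside 0.548% of all peaks, and 7 passed at an unadjusted p under 0.05, beside 8.54%. DESeq2 also called none. The -6.1 kb peak held 6.77 CPM in the KO library with Treg and 4.19, 3.05 and 2.91 CPM without (log2 difference 0.98 ± 0.26, edgeR, adjusted p = 0.108). Without KO Tconv replicate 1 it was 1.20 and called (edgeR, adjusted p = 0.0457). No member was called in the interaction of genotype and Treg in this line, beside 0.0461% of all peaks, and 9 passed at an unadjusted p under 0.05, beside 10.3%. For the -6.1 kb peak that difference between the 2 effects was -1.64 ± 0.38 (edgeR, adjusted p = 0.145), for the +28.0 kb peak -1.67 ± 0.38 (adjusted p = 0.138) and for the +21.6 kb peak -1.47 ± 0.46 (adjusted p = 0.277). The Treg effect was thus not shown to differ between HP1α genotypes.

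In the HP1γ line the Treg effect was likewise not shown to differ between genotypes. In WT Tconv no member was called with against without Treg by edgeR, beside 0.137% of all peaks, 17 passed at an unadjusted p under 0.05, beside 20.3%, and DESeq2 called 1. In KO Tconv 5 were called, beside 8.15% of all peaks, a share of 6.25%. These were the Ctla4 -6.1, +21.6 and +28.0 kb peaks and the Icos +57.2 kb peak, which were higher with Treg, and the Icos +124.4 kb peak, which was lower. The Ctla4 -6.1 kb peak held 14.1, 11.6 and 15.9 CPM with Treg and 3.16, 4.43 and 3.64 CPM without, a rise of 1.90 ± 0.17 (edgeR, adjusted p = 9.89e-06). In WT cells it held 3.34, 3.07 and 2.34 CPM with Treg and 1.08, 1.32 and 2.06 CPM without, and these did not overlap either (log2 difference 1.07 ± 0.29, edgeR, adjusted p = 0.0968). Over 14 alternatives the WT difference ranged from 0.86 to 1.35, and 1 of them called it. The difference between the KO and WT effects was 0.83 ± 0.34 (edgeR, adjusted p = 0.351). No member was called in this interaction, beside 0.0014% of all peaks, and 11 passed at an unadjusted p under 0.05, beside 12.8%.

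The +28.0 kb peak rose by 1.35 ± 0.23 in HP1γ KO Tconv with Treg (edgeR, adjusted p = 0.000874), from 4.11, 7.14 and 5.32 CPM to 15.9, 9.48 and 16.3 CPM. With the 2 groups fitted alone the adjusted p was 0.0569. The +21.6 kb peak rose by 1.23 ± 0.33 (edgeR, adjusted p = 0.0171), from 1.29, 3.31 and 3.35 CPM to 9.68, 3.39 and 5.27 CPM, where replicate 2 with Treg lay barely above the group without Treg. Without replicate 1 with Treg its log2 difference was 0.65 (edgeR, adjusted p = 0.263), and without replicate 1 without Treg 0.91 (edgeR, adjusted p = 0.095). The 2 groups fitted alone, the earlier quasi-likelihood method of edgeR and DESeq2 did not call it either (adjusted p = 0.171, 0.0868 and 0.0533).

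**Figure D3:**
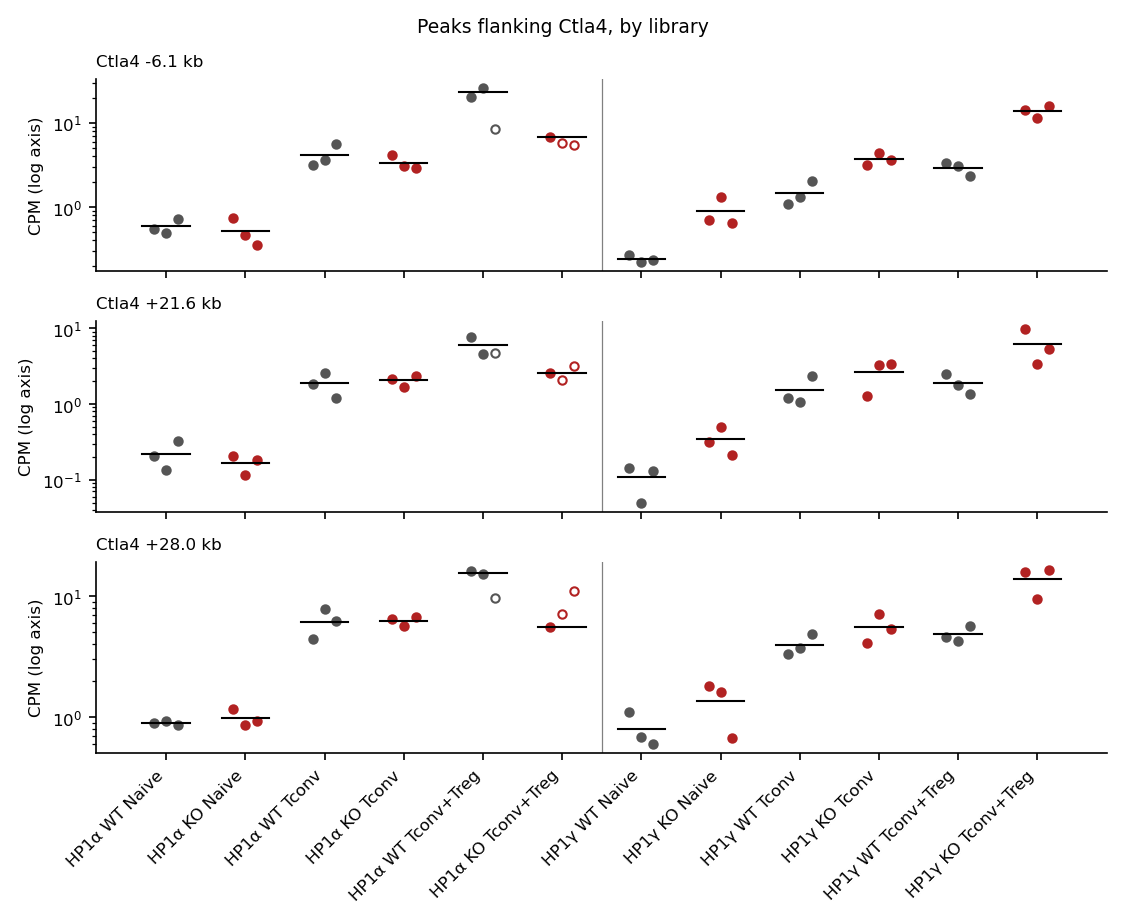
CPM (log axis) over the Ctla4 -6.1, +21.6 and +28.0 kb peaks for each library (points; grey, WT; red, KO; open, left out by the study) with means over the kept libraries (lines). At -6.1 kb, HP1α WT and HP1γ KO Tconv with Treg hold the highest values, 8.45 to 25.9 and 11.6 to 15.9 CPM.

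The last comparison set KO against WT Tconv in the presence of Treg, where the study asked how far each HP1 protein shapes the response to suppression. Of the 22 Ctla4 members, 3 were called in the HP1α line, all lower in KO cells, and 4 in the HP1γ line, all higher. Over the 22, called or not, the log2 difference was above 0 for 8 in HP1α and 17 in HP1γ, with medians of -0.25 and 0.49, against -0.11 and -0.02 over all peaks. Of all 80 members it was above 0 for 44 and 36. In HP1α those 3 were the only calls among the 80 members, beside 1.63% of all peaks called and 1.42% called lower. At the -6.1 kb peak the KO library held 6.77 CPM and the WT libraries 20.3 and 25.9 CPM, a log2 difference of -1.68 ± 0.30 (edgeR, adjusted p = 0.00787). The +28.0 kb peak held 5.57 CPM in KO and 16.0 and 15.2 CPM in WT libraries (log2 difference -1.54 ± 0.33, edgeR, adjusted p = 0.0226). The -3.3 kb peak held 0.291 CPM in KO and 2.52 and 1.13 CPM in WT libraries (-3.03 ± 0.72, edgeR, adjusted p = 0.0325), on 14, 31 and 2 reads. The +21.6 kb peak, at 2.56 CPM in KO and 7.57 and 4.51 CPM in WT libraries, had a difference of -1.51 ± 0.38 (edgeR, adjusted p = 0.0527).

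The 2 KO libraries that the study left out held 5.83 and 5.48 CPM at the -6.1 kb peak, so that all 3 KO libraries lay below all 3 WT libraries, the lowest of which held 8.45 CPM. Low signal was uneven between the genotypes, as 2 of these KO libraries but 1 WT library, that with 8.45 CPM, were left out by the study. Among all 18 libraries KO lay below WT at 4.73% of all peaks. With all 18 libraries 2 members were called, beside 0.741% of all peaks, the -6.1 kb peak (log2 difference -1.47, edgeR, adjusted p = 0.0154) and the +21.6 kb peak (-1.36, adjusted p = 0.0353). The +28.0 kb peak then gave -1.10 (adjusted p = 0.101) and the -3.3 kb peak -1.65 (adjusted p = 0.303). Without KO replicate 1, the library that the study kept, the 18 gave -1.65 at -6.1 kb (adjusted p = 0.148), -0.68 at +28.0 kb and -0.24 at -3.3 kb, and without WT replicate 1 they gave -1.10 at -6.1 kb (adjusted p = 0.886). In all, 6 of 18 alternatives lost the -6.1 kb call, 13 of 18 the +28.0 kb call and 15 of 17 the -3.3 kb call. Without WT replicate 1 no member was called and the -6.1 kb difference was -1.94 (edgeR, adjusted p = 0.973), a comparison of 1 library with 1. Without WT replicate 2 the -6.1 kb peak was the 1 member called (-1.51, adjusted p = 0.0391). With the 2 groups fitted alone or the earlier quasi-likelihood method no member was called, and with depth as a covariate the -6.1 kb peak gave -1.39 (adjusted p = 0.216). The replicate numbers could not be checked for pairing here, and with the replicate block the -6.1 kb peak was again the only call (-1.61, adjusted p = 0.0254).

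Among HP1γ libraries 7 of 80 members were called, beside 11.9% of all peaks, a share of 8.75% that lies under the background. This fit ignored the pairing of same-numbered libraries, and the replicate block, which uses it, called more members (given below). The 4 at Ctla4 were all higher in KO cells. The -6.1 kb peak held 14.1, 11.6 and 15.9 CPM in KO and 3.34, 3.07 and 2.34 CPM in WT libraries, a log2 difference of 2.17 ± 0.19 (edgeR, adjusted p = 4.27e-06). It stayed called under all 14 alternative settings, with log2 differences between 2.08 and 2.29 and adjusted p from 2.11e-14 to 0.0102. The +28.0 kb peak held 15.9, 9.48 and 16.3 CPM in KO and 4.57, 4.26 and 5.65 CPM in WT libraries (1.55 ± 0.25, edgeR, adjusted p = 0.000491) and was also called under all 14. The +21.6 kb peak held 9.68, 3.39 and 5.27 CPM in KO and 2.51, 1.76 and 1.37 CPM in WT libraries (1.64 ± 0.38, edgeR, adjusted p = 0.00565), and without KO replicate 1 it gave 1.06 (adjusted p = 0.0553). The -4.3 kb peak, also in an intron of a non-canonical Ctla4 transcript, held 3.51, 2.76 and 5.60 CPM in KO and 1.64, 1.99 and 1.72 CPM in WT libraries (1.08 ± 0.28, edgeR, adjusted p = 0.0112). Without KO replicate 3 or WT replicate 1 its log2 difference was 0.82 or 0.99, under the threshold. At all 4 peaks the groups did not overlap, nor did they at 31.4% of all peaks. With the 2 groups fitted alone the +21.6 and -4.3 kb peaks were not called (adjusted p = 0.0644 and 0.0802).

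**Figure D4:**
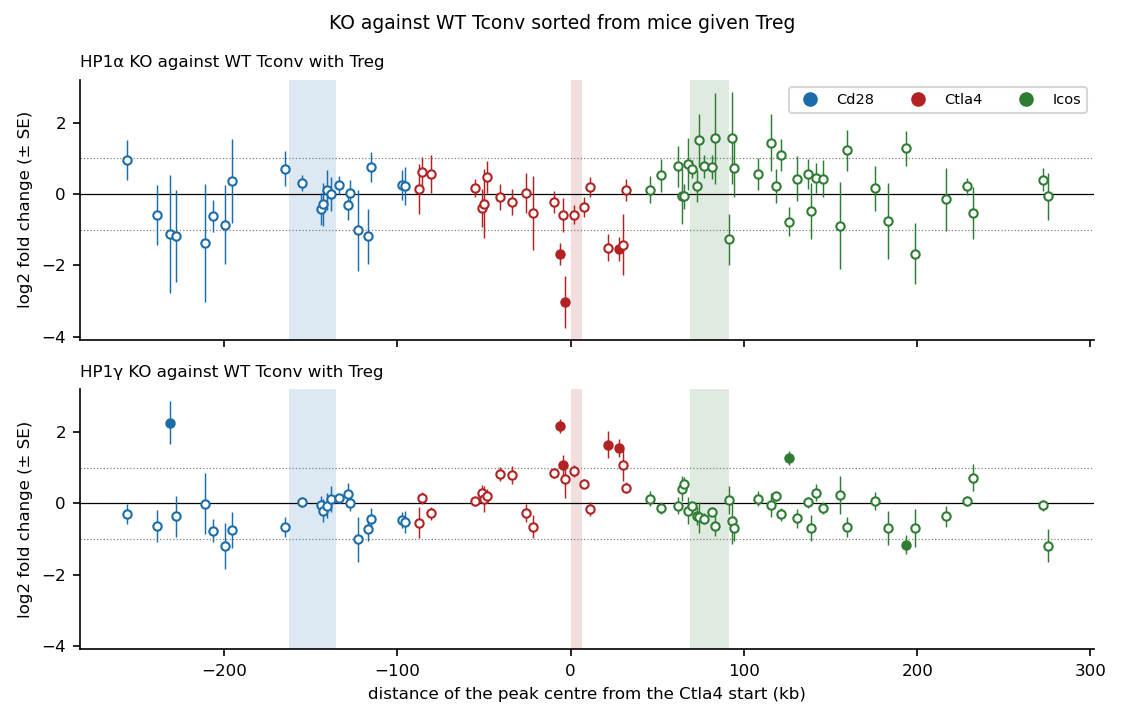
Log2 fold change of KO against WT Tconv with Treg (± SE) for each member, by the distance of the peak centre from the Ctla4 start in kb, in the HP1α line (top; 1 KO and 2 WT libraries) and the HP1γ line (bottom; 3 and 3). Filled points were called, dotted lines mark a log2 fold change of 1 in either direction and bands the canonical gene bodies. Called Ctla4 peaks lie between -3.03 and -1.54 in HP1α and between 1.08 and 2.17 in HP1γ.

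Set side by side, the -6.1 kb peak with Treg held 8.45 to 25.9 CPM in HP1α WT, 5.48 to 6.77 CPM in HP1α KO, 2.34 to 3.34 CPM in HP1γ WT and 11.6 to 15.9 CPM in HP1γ KO libraries, all 36 libraries counted. The WT libraries of the 2 lines did not overlap. The lines were scaled and fitted separately, and the difference between them was not tested. The comparisons of KO with WT and of Treg within WT or KO share libraries and do not support each other.

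At Icos 2 peaks were called with against without Treg in HP1α WT and HP1γ KO Tconv, +57.2 kb higher and +124.4 kb lower. Neither passed in HP1γ WT Tconv (log2 differences 0.70 and -0.63, edgeR, adjusted p = 0.145 and 0.142) or HP1α KO Tconv (0.52 and -0.85, adjusted p = 0.769 and 0.149). The +124.4 kb peak did pass without replicate 2 with Treg in HP1γ WT cells (-1.04, adjusted p = 0.0252) and, with all 18 libraries and without KO replicate 1 with Treg, in HP1α KO cells (-1.21, adjusted p = 0.00981). With all 18 libraries it gave -0.99 in HP1α KO cells (adjusted p = 0.0146), under the threshold on size. The Icos +57.2 kb peak held 11.1, 15.3 and 12.6 CPM in HP1γ KO Tconv with Treg and 4.92, 4.94 and 7.02 CPM in WT Tconv with Treg, which did not overlap. The KO difference was 1.27 ± 0.19 (edgeR, adjusted p = 0.000301), and the rise with Treg in KO cells, from 5.56, 5.63 and 4.31 CPM, was 1.36 ± 0.18 (edgeR, adjusted p = 0.000179). In HP1α WT cells it rose with Treg from 6.49, 6.02 and 4.85 CPM to 15.5 and 20.3 CPM, by 1.41 ± 0.39 (edgeR, adjusted p = 0.0341). Without WT Tconv replicate 1 or 3, or WT replicate 1 or 2 with Treg, this call was lost, as it was with the replicate block (1.38, adjusted p = 0.0534) and with depth as a covariate (1.43, adjusted p = 0.111). The HP1α KO library with Treg held 9.68 CPM (KO against WT -0.78 ± 0.41, edgeR, adjusted p = 0.36).

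The Icos +124.4 kb peak held 3.17, 6.90 and 4.95 CPM in HP1γ KO and 8.0, 16.1 and 8.96 CPM in WT Tconv with Treg. The difference was -1.16 ± 0.27 (edgeR, adjusted p = 0.00557), and without KO replicate 1 or WT replicate 2 it was -0.88 or -0.76 and no longer called. It fell by 1.12 with Treg in HP1γ KO Tconv (SE 0.25, edgeR, adjusted p = 0.00678; without replicate 1 with Treg, -0.84). With only the groups compared in the fit, the adjusted p was 0.0705 for KO against WT and 0.0725 for the Treg effect. In HP1α WT Tconv it fell by 1.93 (SE 0.43, edgeR, adjusted p = 0.00988), from 18.5, 14.1 and 8.78 CPM to 4.23 and 3.38 CPM, and that call was lost without WT Tconv replicate 1 or WT replicate 1 with Treg.

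**Figure D5:**
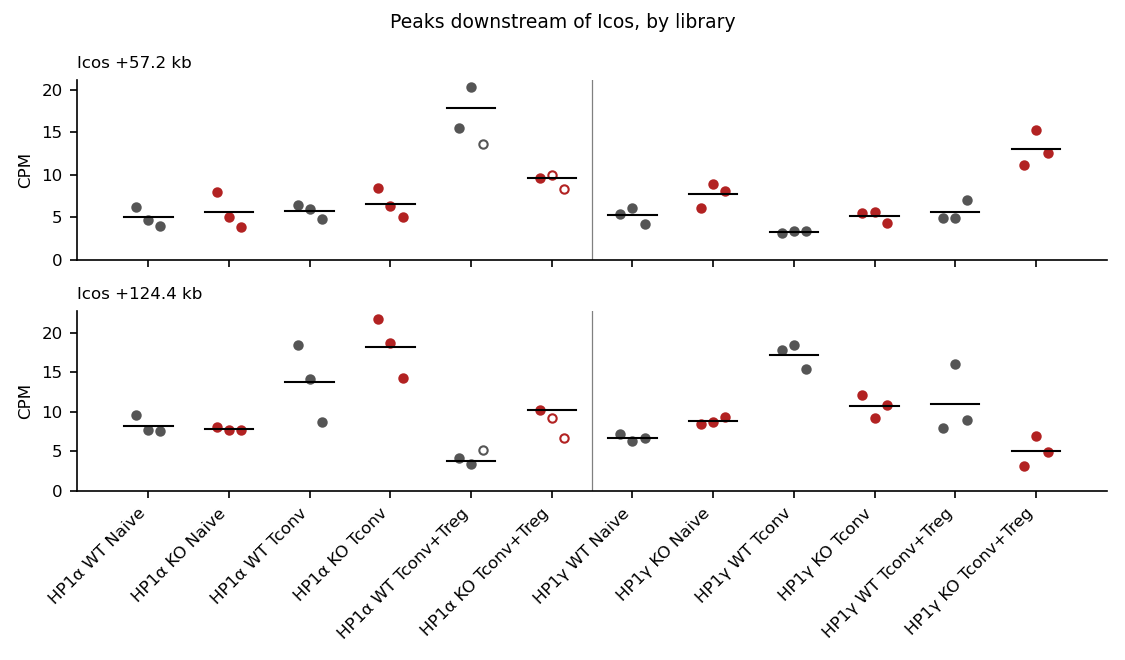
CPM over the Icos +57.2 and +124.4 kb peaks for each library (points; grey, WT; red, KO; open, left out by the study) with means over the kept libraries (lines). In HP1γ KO Tconv with Treg the +57.2 kb peak holds 11.1 to 15.3 CPM and the +124.4 kb peak 3.17 to 6.90 CPM.

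At Cd28 no member was called with against without Treg in any group. The smallest p fell on the Cd28 -2.0 kb peak in HP1α WT (log2 difference -0.96, edgeR, adjusted p = 0.202) and HP1γ KO Tconv (-0.84, adjusted p = 0.0344 and up to 0.163 under alternatives), on the +35.4 kb peak in HP1α KO (0.52, adjusted p = 0.511) and on the +45.6 kb peak in HP1γ WT Tconv (0.84, adjusted p = 0.176). Between HP1α KO and WT with Treg it fell on the +47.7 kb peak at Cd28 (0.76, adjusted p = 0.384) and on the start peak at Icos (0.70, adjusted p = 0.141), and both changed sign under alternatives.

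Because Treg carry CTLA-4, the peaks of Treg markers were read beside the Ctla4 results. In bulk samples, more cells of a type and more open chromatin per cell cannot be told apart. Of the 4 markers, Ikzf2 and Il2ra had a peak over their start, and Foxp3 and Il1rl1 had none there. The summed level at the 2 starts was 16.3 to 30.6 CPM per kb in HP1α WT Tconv with Treg, 33.6 in the KO library with Treg and 25.4 to 39.9 in HP1α Tconv without Treg. In the HP1γ line it was 25.8 to 30.6 CPM per kb in KO and 20.2 to 32.9 in WT Tconv with Treg, so that these groups overlapped. None of the 3 peaks at Foxp3, which encodes the defining transcription factor of Treg, was called in any comparison of KO with WT or with Treg. By flow cytometry, the paper reports more Foxp3+ cells among HP1γ KO than WT donor-specific Tconv at higher Treg doses. It reports no such change for HP1α. The sort excluded the transferred Treg by a marker that Tconv do not carry, so that Tconv turned Foxp3+ would be kept. At Ikzf2, which encodes Helios, a factor found in Treg and in chronically stimulated T cells, 12 of 29 peaks were higher with Treg in HP1α WT Tconv, beside 6.77% of all peaks called, and 4 were lower in HP1α KO than in WT Tconv with Treg, beside 1.63%. Il2ra, which encodes CD25, and Il1rl1 went the other way in this line. At each of them 4 peaks, of 16 and 22, were lower and none higher with Treg in HP1α WT Tconv, with median log2 differences of -0.79 and -1.13, and 1 was higher in HP1α KO than in WT Tconv with Treg. In HP1γ KO against WT Tconv without Treg 6 peaks at Ikzf2 were higher, while 3 at Il2ra and 8 at Il1rl1 were lower, beside 3.35% of all peaks. With Treg 9 at Ikzf2 and 2 at Il2ra were higher and 4 at Il2ra and 8 at Il1rl1 lower in HP1γ KO than in WT, beside 11.9%. In HP1γ KO Tconv 5 at Ikzf2 and 2 at Il2ra were higher with than without Treg, and none at Il1rl1 was called, beside 8.15%. For the lone HP1α KO library with Treg, the median log2 differences from KO Tconv were 0.59 at Ikzf2, -0.19 at Il2ra and -0.05 at Il1rl1. The part of these movements in the Ctla4 results was not tested.

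The other genes of the pathway were followed through 474 peaks of 32 genes. In HP1α WT Tconv against naive cells 137 of the 474 were higher and 51 lower, and in HP1γ WT cells 142 and 70. The shares called, 39.7 and 44.7%, lay under the 42.5 and 46.5% of all peaks. The ligand gene Cd80 gained accessibility at its start in all 4 comparisons, by 3.54 in HP1α WT and 4.63 in HP1γ WT cells on the log2 scale (edgeR, adjusted p = 2.59e-05 and 3.26e-08). The start of Pdcd1, which encodes the inhibitory receptor PD-1 of the CD28 family, gained 1.13 in HP1γ WT and 1.34 in HP1γ KO cells (edgeR, adjusted p = 5.34e-06 and 2.18e-06). Of the 119 peaks at regulators of the 3 genes, among them Nfatc1, Nfatc2, Nfkb1, Rel and the RNA-binding repressors Rc3h1 and Zc3h12a, 53 were higher and 6 lower in HP1α WT Tconv. Over all peaks, 24.9% were called higher and 17.5% lower in that comparison. The start of Nfatc2 rose by 1.11 in HP1γ WT cells (edgeR, adjusted p = 3.51e-08).

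In the comparison of KO with WT Tconv with Treg, 1 of the 474 was higher and 8 were lower in the HP1α line (1.9%, beside 1.63% of all peaks), and 25 were higher and 31 lower in the HP1γ line (11.8%, beside 11.9%), so that both shares were near the background. The 21 peaks at Pdcd1 and Btla, inhibitory receptors related to CTLA-4, held 4 that were higher and none lower in HP1γ KO cells with Treg, 2 at each gene, and 1 that was lower in HP1α KO cells, at Btla. With against without Treg, 5 were higher in HP1α WT and 4 in HP1γ KO Tconv, beside 6.77 and 8.15% of all peaks called. Of the 254 peaks at signalling genes downstream of CD28 and ICOS, 6 were higher and 19 lower in HP1γ KO than in WT Tconv with Treg. Of the 51 at partners of CTLA-4, such as Lrba, whose product keeps CTLA-4 from being degraded, 7 were higher and 3 lower. The 29 peaks at the ligand genes Cd80, Cd86 and Icosl held 1 higher and 4 lower. The median log2 difference of the 474 peaks in that comparison was -0.06, against -0.02 over all peaks.

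Over the 12 group means, each line centred, the starts of other genes most like each start peak were chosen from 10745 candidate peaks by Pearson correlation, given as a description. Among the closest to the Ctla4 start were those of Cfap43 (r = 0.965), Rhpn1 (0.965), Pgbd5 (0.964) and Tmem18 (0.964). For Icos the closest were Ipcef1 (0.961), Ms4a4b (0.957), Wdr12 with Carf (0.95), Metap1d (0.948) and Chd7 (0.947). For Cd28 they were Ythdf1 (0.944), Tmpo (0.937), B2m (0.935), Zfp91 with Lpxn and Gm44505 (0.929) and Abcb1b (0.917). The groups within a line share their scaling, and the Cd28 start varied by a SD of only 0.14 on the log2 scale over the 12 means, against 0.43 for Ctla4 and 0.24 for Icos.

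Short motifs of T cell factors were searched for on both strands in the central 300 bases of every peak. The AP-1 motif TGANTCA was found in 12 of 80 members (15%) and in 13% of all peaks, NFAT TGGAAA in 22 (27.5%) and 23.7%, and RUNX TGTGGT in 34 (42.5%) and 30%. TCF CTTTGAT was found in 9 members (11.2%) and 5.76% of all peaks, forkhead TGTTTAC in 4 (5%) and 4.34%, T-box GGTGTGA in 4 (5%) and 5.58% and the NF-kB motif in 2 (2.5%) and 0.81%. The windows printed above held no match at Ctla4 -6.1 and +28.0 kb, 1 RUNX match at Ctla4 +21.6 kb, 2 NFAT matches and 1 TCF match at Icos +57.2 kb, and 1 NFAT match before the Ctla4 start. They cover 300 of 1210, 1720, 610 and 1370 bp of the 4 peaks in that order. Over their whole width, the -6.1 kb peak held 2 NFAT matches and 1 forkhead match, the +28.0 kb peak 4 NFAT matches and 1 T-box match, the +21.6 kb peak 1 NFAT match and 2 RUNX matches, and the Icos +57.2 kb peak 7 NFAT matches, 1 AP-1 match and 1 TCF match. The shares over all peaks above are for windows of 300 bases and do not apply to whole peaks.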

How the data were processed

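ATAC-seq libraries of 36 samples were taken from the deposited table, in which the authors give raw read counts over merged peaks. Per the study's methods, reads were trimmed with Trim Galore, aligned to GRCm39 with BWA-MEM 2, filtered and deduplicated, and counted with featureCounts over merged HMMRATAC peaks. From 71512 intervals, 3 without width were dropped. The main test was edgeR 4.0.16 in R 4.3.3 (filterByExpr, TMM, quasi-likelihood), with all groups of a line in one fit, 15 HP1α and 18 HP1γ libraries, and Benjamini-Hochberg adjustment over all peaks. The lines were fitted separately. A call needed an adjusted p under 0.05 and a log2 fold change over 1 in size. The members, motifs and gene lists were chosen with earlier results of these data known, and the canonical transcript start was settled on after the peak positions were seen. Named were the start peaks, the member with the smallest p per gene and comparison, and every member called between KO and WT or with Treg. A few further peaks were named after their values were seen, among them Ctla4 +21.6 kb in HP1α KO against WT and the members called in all 4 comparisons with naive cells. On simulated data with 200 changed peaks the test recovered 92% in a HP1γ comparison and 42% in a HP1α comparison. Alternatives were library size alone, loess offsets, no filter, depth as a covariate, the earlier quasi-likelihood method, only the groups compared, the replicate block, each replicate left out, DESeq2 1.42.0 and, chosen after seeing the data, further fits with all 18 HP1α libraries. The deviations of same-numbered libraries correlated above 0.1 in every pair for HP1α KO against WT naive (0.25 to 0.51), HP1γ KO against WT with Treg (0.15 to 0.32) and HP1γ WT with against without Treg (0.20 to 0.29), and these comparisons were regarded as paired. The main test had no replicate term, so that its values ignore this pairing. Only the replicate block used it. One gene among those most like the Ctla4 start is not reported here.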

Additional observations from a re-analysis of the deposited data

How the results depend on the processing

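Under alternative settings, the counts of the 80 members called in Tconv against naive cells stayed within 1.5 times, except that of the peaks in the gene bodies or within 10 kb alone 11 and 11 were called in HP1α WT and KO and 12 and 10 in HP1γ WT and KO. With that restriction 2 were called in HP1α WT with against without Treg, 1 in HP1γ KO against WT Tconv, 2 in HP1γ KO against WT with Treg and 1 in HP1γ KO with against without Treg, since fewer peaks were counted. For HP1α KO against WT with Treg (3 called), 1 was called with log2 depth as a covariate, 1 with all 18 libraries and depth, 0 with the earlier quasi-likelihood method and 0 with only the groups compared. With only the groups compared, 0 were called in HP1γ KO against WT Tconv, 4 with Treg and 2 in HP1γ KO with against without Treg. The earlier method called 1 in HP1γ KO against WT Tconv. In HP1γ KO against WT naive the earlier method, only the groups compared and DESeq2 called 1 each, and in HP1γ WT with against without Treg DESeq2 called 1. The cause was not tested.

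With the replicate block, 1 member was called in HP1α KO against WT with Treg and 1 in HP1α KO with against without Treg (main 3 and 0), where the pairing could not be checked. In the paired comparisons the block gave 0, 9 and 0 calls, against 0, 7 and 0 without it, and it moved no other count by over 1.5 times.

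Leaving out 1 replicate gave 37 to 45 and 40 to 46 calls for HP1α WT and KO Tconv against naive, 44 to 47 and 36 to 44 for HP1γ, 0 to 0 for KO against WT naive in both lines, 0 to 1 and 1 to 4 for KO against WT Tconv in HP1α and HP1γ, and 0 to 3 and 4 to 9 with Treg. With against without Treg it gave 0 to 6 and 0 to 14 for HP1α WT and KO and 0 to 2 and 3 to 7 for HP1γ WT and KO, and 0 to 0 for all interactions. The 14 arose with all 18 libraries without KO replicate 1 with Treg.

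Of 65 values of named peaks under all alternatives, 911 results kept direction and side of the threshold, 89 lost a call, 16 gained one and 6 changed sign. Cd28 +47.7 kb in HP1α KO against WT with Treg was 1.07 without WT replicate 2 with Treg and became -0.06 without WT replicate 1, and with all 18 libraries -0.33 without that replicate and -0.58 without KO replicate 1 with Treg. With all 18 libraries and without that KO replicate, Cd28 +35.4 kb in HP1α KO with against without Treg became -0.08, Icos +1.2 kb in KO against WT with Treg -0.07 and in the interaction with Treg -0.18. Library size alone moved the median over all peaks in HP1α WT Tconv against naive from -0.03 to 0.17, and loess offsets moved the share of calls that were higher in HP1γ KO against WT Tconv from 50.5 to 35.9%. The HP1α values with Treg rest on 1 KO library and 2 WT libraries, 1 of them of 1486053 reads.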
